A study of Homo sapiens with 4 samples.

Results

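The genes described here lie on the long arm of chromosome 13 at 13q14, from MTRF1 to SUGT1 in gene order, and include the retinoblastoma gene RB1. The list holds 48 genes, of which 46 had a probe set assigned to them alone, out of 18417 genes measured. PHF11 and TRIM13 had none and are not analysed here. The members were chosen by their position together with their measured log2 difference between the 2 lines on these same 4 arrays, so every value of a member below is a description with no test. Gene order came from a RefSeq gene table, and each gene was read from its probe set with the highest mean signal.

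RNA was compared between MV4-11, an acute myeloid leukaemia cell line known for an MLL gene fusion and for an internal tandem duplication of FLT3, and MV4-11R. MV4-11R was made from MV4-11 by 3 months of continuous culture in rising concentrations of PKC412 (midostaurin), a kinase inhibitor that acts on FLT3. MV4-11 is labelled drug-sensitive with high EZH2 expression, and MV4-11R drug-resistant with low EZH2 expression. Each line was measured on 2 arrays, and both groups share the MV4-11 origin. Whether MV4-11R is a clone, and whether its RNA was taken with the drug present, is not given in the sources used here.

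RB1 encodes the retinoblastoma protein, which binds E2F transcription factors and holds back genes of DNA replication until cyclin-dependent kinases phosphorylate it. The same band holds DLEU2, the host gene of the microRNAs miR-15a and miR-16, and is a recurrent site of deletion in chronic lymphocytic leukaemia. The neighbouring genes serve unrelated functions, among them subunits of Mediator, Integrator, RNase H2 and Golgi and endosome complexes.

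Median log2 signal over all probe sets was 6.75 to 6.78 on the 4 arrays. All 7 measured markers of the myeloid lineage read above background in both lines, against 0 of 3 T cell and 0 of 2 erythroid markers, 1 of 2 B cell markers (CD79A) and 1 of 3 epithelial markers (KRT19). Of the myeloid markers, CSF1R, LYZ and FLT3 were lower in MV4-11R by limma (adjusted p = 0.00939, 0.0192 and 0.00526). As a guide to background, the 95th percentile of 341 olfactory receptor genes was used, a mean log2 signal of 6.26. A fall in the RNA of each cell and a fall in the share of cells that carry it cannot be told apart in these extracts. The labels do not say that the arrays of a line came from separate cultures.

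The 13q14 genes did not move as a single block. From LACC1 to SUGT1 the members read lower in MV4-11R with few exceptions, whereas the members from MTRF1 to ENOX1 were mixed: 4 were higher, 2 were lower and 4 overlapped. Over all 46 measured members the median difference, MV4-11R minus MV4-11, was -0.89 log2 units, against 0.0073 over all 18417 genes. Both MV4-11R arrays lay below both MV4-11 arrays for 36 members, above them for 4, and the arrays of the lines overlapped for 6. The same order, lower without overlap, was found for 26.0% of all genes, and the reverse order for 29.6%. In 20 members the signal was at least 2-fold lower, a size met by 2.74% of all genes. Of the 39 members above the background guide, 34 were lower without overlap, against 28.3% of all genes above it, and the same 20 were at least 2-fold lower, against 3.59%. By limma, 7.13% of all genes were lower and 7.92% higher. Because the contrast chose the members, these shares are given for reference only and nothing is read from them.

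**Figure D1:**
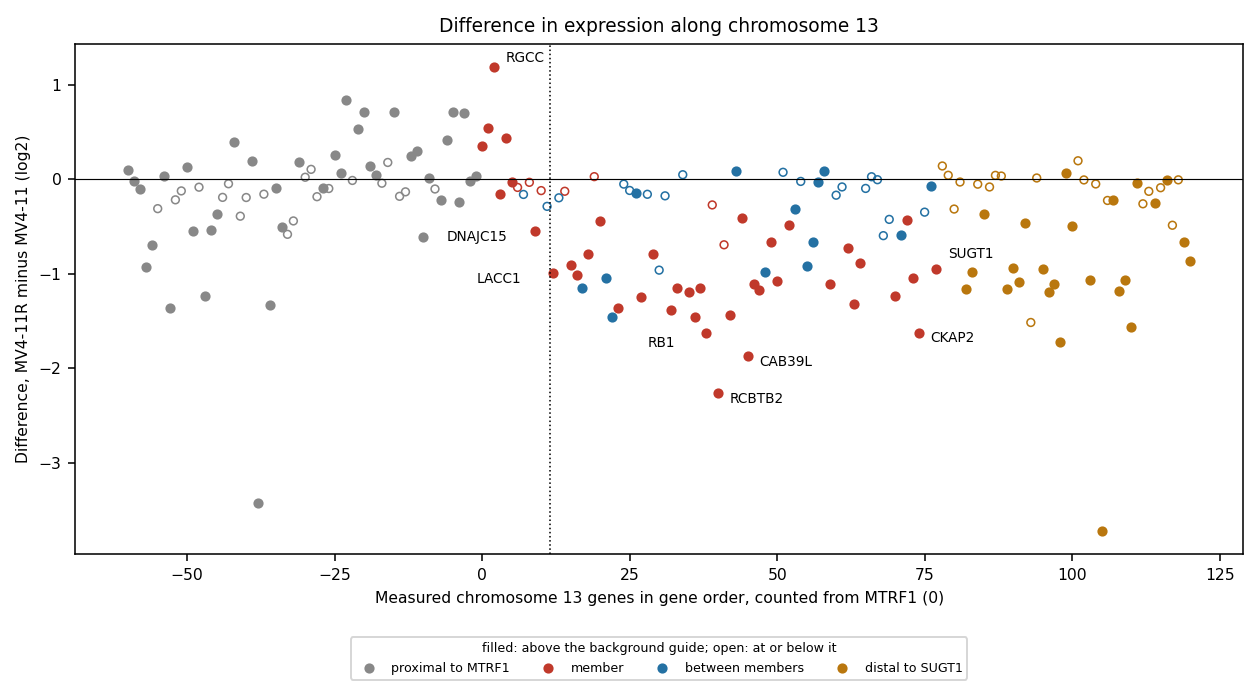
Log2 difference (MV4-11R minus MV4-11) of measured chromosome 13 genes around 13q14 in gene order, counted from MTRF1 at 0, with members in red, genes between them in blue, and genes on the near and far sides in grey and orange. Filled points had a mean signal above the background guide of 6.26 and open points did not; the dotted line stands between ENOX1 and LACC1, beyond which all 32 filled members lie below 0.

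The position of the change was read off after the values were seen. Of the 10 measured members from MTRF1 to ENOX1, 7 had a mean signal above the guide, with a median difference of 0.36 and a range from -0.55 to 1.19. Over all 10 the median was -0.03. Of the 36 from LACC1 to SUGT1, 32 were above the guide, and all 32 were lower in MV4-11R without overlap, with a median of -1.11 and a range from -2.27 to -0.41. Over all 36 the median was -1.06. The 25th and 75th percentiles of these 32 differences were -1.33 and -0.86. Split in gene order, the median was -1.01 for the 11 genes from LACC1 to SUCLA2, -1.17 for the 11 from MED4 to KPNA3 and -0.99 for the 10 from SPRYD7 to SUGT1. The lowest values, of RCBTB2, CAB39L and RB1, lay in the middle stretch, and the next, of CKAP2, lay near the far end.

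**Figure D2:**
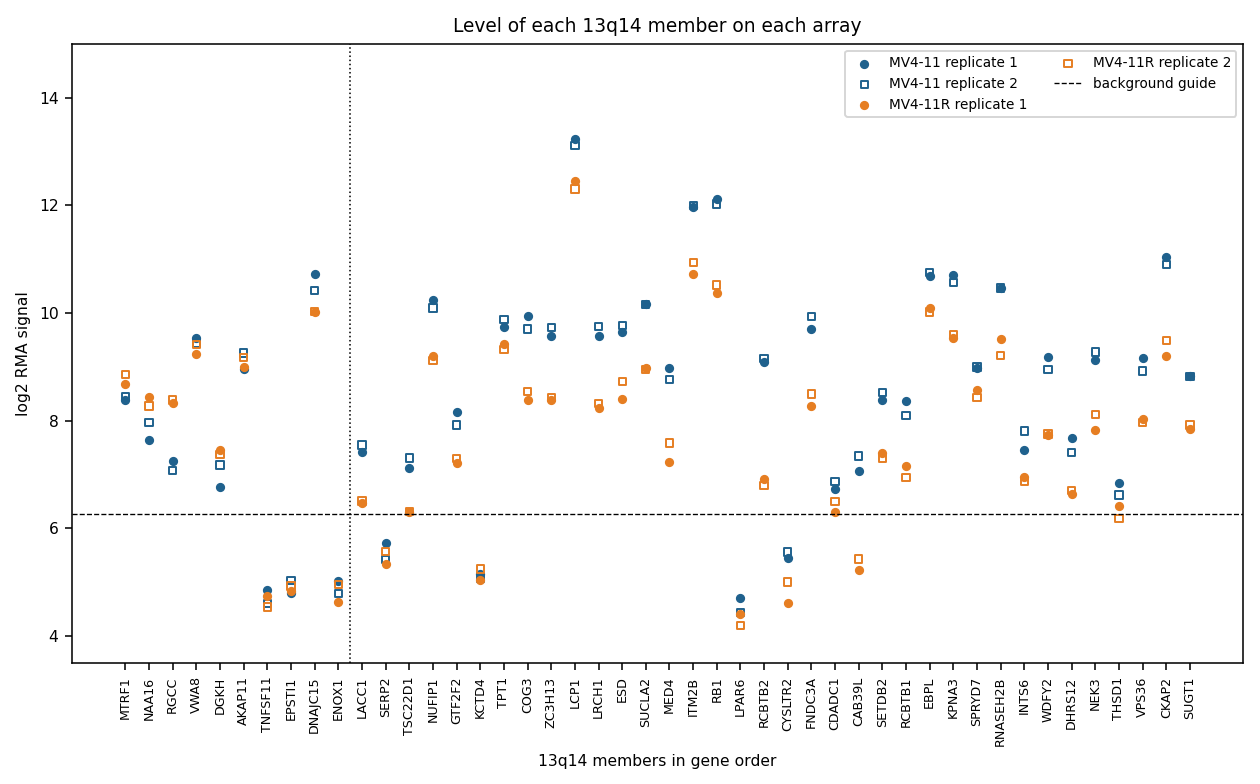
Log2 RMA signal of each measured 13q14 member on each of the 4 arrays, in gene order, with the background guide of 6.26 as a dashed line. To the right of the dotted line the orange MV4-11R points lie below the blue MV4-11 points for every member above the guide, and to its left they lie level with them or above for all but VWA8 and DNAJC15.

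Among genes of cell cycle and growth control, RB1 (Entrez gene 5925) read 12.11 and 12.03 on the MV4-11 arrays and 10.37 and 10.52 on the MV4-11R arrays. The means were 12.07 ± 0.062 and 10.44 ± 0.11 (SD, n = 2 each), a difference of -1.63, or 3.09-fold lower. The gap between the lines was many times the gap between arrays of a line, and 0.722% of all genes had a lower difference. With any 1 array left out the RB1 difference stayed between -1.70 and -1.55. RB1 remained well above the background guide in MV4-11R, so the transcript was reduced but still present in the extract. Whether every cell kept it cannot be told from these extracts.

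CKAP2, a microtubule-associated protein of the mitotic spindle, read 11.04 and 10.90 in MV4-11 against 9.19 and 9.49 in MV4-11R, 3.09-fold lower. The NIMA-related kinase NEK3 read 9.12 and 9.27 against 7.82 and 8.11, 2.35-fold lower. SUGT1, a co-chaperone of HSP90 with a part in kinetochore assembly, read 8.83 and 8.82 against 7.85 and 7.92, 1.93-fold lower. For these genes too the arrays of the lines were well apart. TSC22D1, a leucine zipper protein induced by TGF-beta, read 7.12 and 7.31 against 6.30 and 6.31, where MV4-11R was just above the guide. TPT1, the translationally controlled tumour protein, had a smaller difference of -0.44, with 9.75 and 9.88 against 9.42 and 9.32. Its other probe set gave -0.72, and processed copies of TPT1 elsewhere in the genome make its signal uncertain.

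RGCC, a regulator of the cell cycle that responds to complement, stood opposite to these. It read 7.26 and 7.07 in MV4-11 and 8.32 and 8.38 in MV4-11R, 2.28-fold higher, and 98.7% of all genes had a lower difference. It was the only member higher by more than 2-fold. The group of 7 cell cycle and growth genes thus held 6 that were lower without overlap and 1 that was higher, with a median of -0.95. The 6 lie from LACC1 onward and RGCC before it, and 26.0% of all genes were lower without overlap.

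All 7 measured genes of transcription, chromatin and RNA handling were lower without overlap, with a median of -1.11 and a range from -1.46 to -0.72. The same order was found for 26.0% of all genes. These 7 lie from LACC1 onward, and a difference by class was not tested apart from position. MED4, a subunit of the Mediator coactivator, read 8.97 and 8.77 in MV4-11 and 7.24 and 7.58 in MV4-11R, 2.75-fold lower. ZC3H13, part of the complex that writes N6-methyladenosine on RNA, read 9.57 and 9.73 against 8.38 and 8.43, 2.37-fold lower. Both showed a gap between lines several times that between arrays. SETDB2, a SET domain protein of the histone H3 lysine methyltransferase family, read 8.39 and 8.52 against 7.39 and 7.29. RNASEH2B, a subunit of the nuclease that removes ribonucleotides from DNA, read 10.47 and 10.47 against 9.52 and 9.21. The RNA-binding protein NUFIP1 read 10.24 and 10.09 against 9.20 and 9.11. These 3 genes were 2.16, 2.15 and 2.01-fold lower. GTF2F2, the small subunit of the initiation factor TFIIF, differed by -0.79 and INTS6, an Integrator subunit, by -0.72. INTS6 had the smallest difference of the group, and its MV4-11 arrays, at 7.46 and 7.81, were also further apart than its MV4-11R arrays, at 6.95 and 6.87.

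Of 6 genes of membrane traffic and nuclear import, 5 were at least 2-fold lower, against 2.74% of all genes, and all 6 lie from LACC1 onward. COG3, a subunit of the Golgi tethering complex COG, read 9.94 and 9.70 in MV4-11 and 8.38 and 8.54 in MV4-11R, 2.58-fold lower. WDFY2, an endosomal FYVE domain protein, read 9.18 and 8.95 against 7.74 and 7.75, 2.50-fold lower. ITM2B, a type II membrane protein, read 11.97 and 12.00 against 10.72 and 10.94, 2.22-fold lower. In each the lines were more than 1 log2 unit apart. The importin KPNA3 (-1.08) and the ESCRT-II subunit VPS36 (-1.04), which sorts ubiquitinated receptors at endosomes, were close to these. SERP2, a small protein of the endoplasmic reticulum, read 5.33 to 5.72 on the 4 arrays, below the guide and with overlap.

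Of the 4 mitochondrial genes, SUCLA2 lies from LACC1 onward and the others before it. SUCLA2, a subunit of succinyl-CoA ligase, read 10.16 and 10.15 in MV4-11 and 8.98 and 8.95 in MV4-11R, 2.28-fold lower. DNAJC15, a J protein of the inner membrane, read 10.72 and 10.41 against 10.01 and 10.03, 1.46-fold lower. VWA8, an ATPase domain protein, read 9.53 and 9.44 against 9.24 and 9.42, so that its lines were 0.16 apart and nearly touched. MTRF1, a release factor of mitochondrial translation, read 8.39 and 8.44 against 8.69 and 8.86, 1.28-fold higher. MTRF1 is the first member in gene order, at the end of the list where the differences were mixed.

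LCP1, or L-plastin, bundles actin in leukocytes, and LACC1 is an enzyme of macrophage metabolism and inflammation. LCP1 read 13.22 and 13.11 in MV4-11 and 12.46 and 12.30 in MV4-11R, 1.73-fold lower. LACC1 read 7.41 and 7.55 against 6.47 and 6.51, 1.99-fold lower. Neither showed overlap. EPSTI1, an interferon-responsive gene between MTRF1 and LACC1, was below the guide in both lines, at 4.79 to 5.03.

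Of 5 genes for metabolic enzymes, 4 were lower without overlap, against 26.0% of all genes, and these 4 lie from LACC1 onward. ESD, which hydrolyses S-formylglutathione, read 9.65 and 9.77 against 8.40 and 8.72, 2.22-fold lower. The short-chain dehydrogenase DHRS12 (-0.88), EBPL (-0.66), which is related to a sterol isomerase, and the cytidine deaminase family member CDADC1 (-0.41) had smaller differences. ENOX1 was below the guide in both lines. CDADC1 read 6.73 and 6.87 against 6.30 and 6.49, so its MV4-11R level was near the background guide.

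Of 6 ligands, receptors and signalling genes, CAB39L, a scaffold of the LKB1 kinase, read 7.06 and 7.34 in MV4-11 and 5.23 and 5.43 in MV4-11R. The difference of -1.87 (3.66-fold) took it below the guide, the only member to cross it, so the fold is not exact. Its mean over the 4 arrays, 6.264, passed the guide of 6.258 only through MV4-11. The ligand TNFSF11 (RANKL), the lysophosphatidic acid receptor LPAR6 and the leukotriene receptor CYSLTR2 were below the guide in both lines. LPAR6 (-0.27) and CYSLTR2 (-0.69) are counted as lower without overlap, though at such signals a change could not be measured. LPAR6 lies within the RB1 gene in the RefSeq table, and its mean signal was 4.57 in MV4-11 and 4.30 in MV4-11R. DGKH, a diacylglycerol kinase, read 6.77 and 7.18 against 7.45 and 7.38, 1.36-fold higher. The protein kinase A anchor AKAP11 read 8.96 and 9.25 against 8.99 and 9.17, with full overlap.

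RCBTB2, which carries RCC1 repeats and a BTB domain, had the lowest difference of all 46 members. It read 9.09 and 9.15 in MV4-11 and 6.92 and 6.79 in MV4-11R, 4.81-fold lower, and 0.266% of all genes had a lower difference. Its relative RCBTB1, further along the band, read 8.36 and 8.10 against 7.16 and 6.95, 2.26-fold lower. FNDC3A, a fibronectin type III domain protein, was 2.72-fold lower and LRCH1, a leucine-rich repeat protein that binds DOCK8, 2.61-fold lower. SPRYD7 (1.40-fold) and THSD1 (1.35-fold) were lower by less, and KCTD4 was below the guide. THSD1 read 6.41 and 6.19 in MV4-11R, near the guide, so its fold is not exact. NAA16, an auxiliary subunit of an N-terminal acetyltransferase, read 7.65 and 7.97 against 8.44 and 8.27, 1.46-fold higher.

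**Figure D3:**
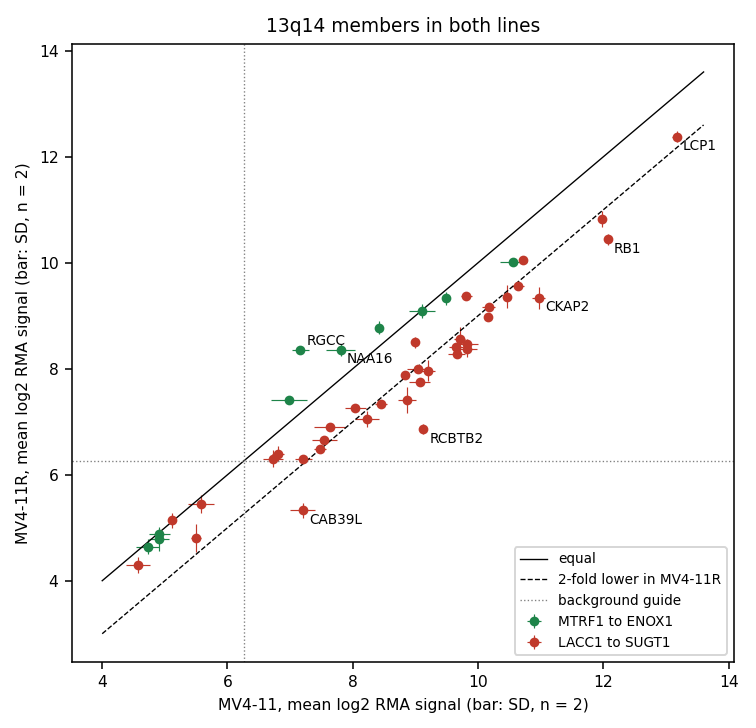
Mean log2 RMA signal of each 13q14 member in MV4-11 (horizontal) and MV4-11R (vertical), with bars for the SD over 2 arrays, the line of equal signal and a dashed line for 2-fold lower in MV4-11R. RCBTB2, CAB39L, RB1 and CKAP2 lie furthest below the dashed line, while RGCC and NAA16 lie above the line of equal signal.

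In all, 10 members were not lower without overlap in MV4-11R. RGCC, NAA16, DGKH and MTRF1 were higher without overlap, an order found for 29.6% of all genes, and AKAP11 overlapped above the guide. These 5 all lie before LACC1. For NAA16 and DGKH the MV4-11 arrays differed from each other by more than the nearest arrays of the lines. The other 5, TNFSF11, EPSTI1, ENOX1, SERP2 and KCTD4, overlapped at signals below the guide, where a change could not be measured. From LACC1 onward no member above the guide escaped the lower signal, but that start was placed after the values were seen. DNAJC15, before it, was also lower without overlap. Its difference of -0.55 was larger in size than that of CDADC1 (-0.41) after it.

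The 5 measured genes just before MTRF1 were KBTBD7 (0.04), KBTBD6 (-0.01), WBP4 (0.70), the ETS factor ELF1 (-0.24) and the ornithine transporter SLC25A15 (0.71), as log2 differences. The 77 genes above the guide from the start of the chromosome to KBTBD7 had a median of 0.015, and all 114 measured there a median of -0.06. Lower without overlap were 26 of the 77 (33.8%) and 40 of the 114 (35.1%). The shares over all genes were 28.3% above the guide and 26.0% without that limit. The 5 just beyond SUGT1 were CNMD (0.14), PCDH8 (0.04), OLFM4 (-0.31) and PCDH17 (-0.03), all 4 below the guide in both lines, and the formin DIAPH3 (-1.16). Above the guide, the 78 genes beyond SUGT1 had a median of -0.87, and 64 of them (82.1%) were lower without overlap. Over all 124 genes measured there the median was -0.35, with 75 (60.5%) lower without overlap. By these medians the genes beyond SUGT1 read lower in MV4-11R, and those before MTRF1 differed little as a group. Where the lower signal began or ended was not tested, as the members were chosen with the differences known. Single genes before MTRF1 were lower too, down to -3.43. FLT3, on the near side at 13q12, differed by -0.93, with 11.76 in MV4-11 and 10.83 in MV4-11R.

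Between the members lie 32 measured genes that the list leaves out, with 13 above the guide and a median of -0.58 among these, against -0.16 over all 32. GPALPP1 (2.22-fold), SLC25A30 (2.75-fold) and ARL11 (1.98-fold), a small GTPase known as a tumour suppressor candidate, were lower without overlap. SLC25A30 read 6.20 and 6.07 in MV4-11R, below the guide, so its fold is not exact. MLNR, SIAH3, HNRNPA1L2 and the pseudogene ST13P4 overlapped above the guide, and DLEU7 was 1.07-fold higher without overlap. Lower without overlap were 8 of the 13 above the guide (61.5%) and 13 of all 32 (40.6%). The shares over all genes were 28.3% above the guide and 26.0% without that limit. These shares were not tested against that of the members.

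The leukaemia tumour suppressor region around DLEU2 was read by several probe sets. DLEU1 read 8.06 and 7.90 in MV4-11 and 7.20 and 7.42 in MV4-11R, 1.59-fold lower. DLEU2 read 9.73 and 9.81 against 9.59 and 9.32, 1.24-fold lower. The MIR15A probe set read 7.01 and 7.66 against 6.31 and 6.52, 1.89-fold lower, with MV4-11 arrays that differed from each other by more than the nearest arrays of the lines. The MIR16-1 probe set read 3.96 to 4.16 on all 4 arrays, at background. A change could not be measured with the MIR16-1 probe set, and mature microRNA is not analysed here. The mature forms are shown, from RefSeq, because their shared seed (bases 2 to 8, in capitals) gives them the same class of targets, BCL2 among the known ones. They lie on the minus strand of GRCh38.p14 at chr13:50049167-50049188 and chr13:50049027-50049048.
miR-15a-5p: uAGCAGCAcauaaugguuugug
miR-16-5p: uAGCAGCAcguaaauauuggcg

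Promoter sequence was searched for 4 motifs. RefSeq promoter sequence that starts at the outer end of the gene was found for 34 of the 46 measured members. In the 250 bases before the start, a GC box (GGGCGG) was present on either strand in 18 of 34 members (52.9%) against 41.7% of 24885 genes. A CCAAT box (CCAAT) was present in 9 (26.5% against 33.4%), a TATA box (TATAAA) in 2 (5.88% against 11.4%) and an E2F-like site (TTTNNCGC) in 2 (5.88% against 5.94%). By position, a GC box was found in 3 of 8 members from MTRF1 to ENOX1 and 15 of 26 from LACC1 onward, and a CCAAT box in 0 of 8 and 9 of 26. These matches describe the letters only. The promoters of 3 genes show how unlike they are, RGCC, which was higher, and LCP1 and COG3, which were lower, with matches to any of the 4 motifs in capitals. They lie in GRCh38.p14 at chr13:41457300-41457549 on the plus strand, chr13:46182178-46182427 on the minus strand and chr13:45464689-45464938 on the plus strand. RGCC held 4 GC boxes, LCP1 held 2 TATA boxes and 1 GC box, and COG3 held 2 GC boxes, 1 CCAAT box and 1 E2F-like site.
RGCC: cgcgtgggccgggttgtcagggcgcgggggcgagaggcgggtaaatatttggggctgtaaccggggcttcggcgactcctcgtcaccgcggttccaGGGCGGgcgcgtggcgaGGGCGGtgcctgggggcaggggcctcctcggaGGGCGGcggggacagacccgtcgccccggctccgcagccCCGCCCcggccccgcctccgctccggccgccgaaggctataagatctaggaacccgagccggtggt
LCP1: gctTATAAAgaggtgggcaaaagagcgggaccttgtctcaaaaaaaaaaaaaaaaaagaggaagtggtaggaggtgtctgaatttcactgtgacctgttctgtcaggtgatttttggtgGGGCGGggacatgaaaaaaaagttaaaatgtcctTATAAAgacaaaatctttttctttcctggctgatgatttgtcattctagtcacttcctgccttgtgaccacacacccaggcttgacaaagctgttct
COG3: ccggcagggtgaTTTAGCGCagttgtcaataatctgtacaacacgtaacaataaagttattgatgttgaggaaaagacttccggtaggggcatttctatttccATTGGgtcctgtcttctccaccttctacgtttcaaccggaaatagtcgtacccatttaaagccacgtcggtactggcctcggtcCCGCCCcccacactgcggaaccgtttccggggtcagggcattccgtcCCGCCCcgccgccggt

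The partners of RB1 in the cell cycle, which the list does not hold, were tested with limma across all genes. Of 31 measured genes of the RB pathway, 3 rose, 3 fell and 25 did not pass, or 19.4% passing against 15.1% of all genes. Without TFDP1, which lies on chromosome 13, 3 of 30 rose and 2 fell, or 16.7% passing, near the share of all genes. Cyclin D2, CCND2, read 10.46 and 10.53 in MV4-11 against 11.50 and 11.67 in the resistant line (a log2 rise of 1.09, SE 0.12, adjusted p = 0.00404), and its kinase CDK6 read 10.18 and 9.83 against 11.19 and 10.87 (1.03, SE 0.17, adjusted p = 0.0146). The complex of these proteins phosphorylates the RB protein, and for both the arrays of the lines were apart. CCND1 rose 1.73-fold (adjusted p = 0.0307). TFDP1, the dimer partner of E2F factors and itself a distal gene of chromosome 13, fell 1.90-fold (adjusted p = 0.0064), the repressor E2F7 fell 1.60-fold (0.0240) and SKP2, which targets p27 for degradation, fell 1.34-fold (0.0479).

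The other pocket proteins did not pass, RBL1 with a difference of 0.45 (95% interval -0.02 to 0.93, adjusted p = 0.193) and RBL2 with -0.04 (-0.35 to 0.26, adjusted p = 0.884). E2F1 differed by 0.57 (-0.06 to 1.19, adjusted p = 0.215) and CDK4 by 0.35 (-0.05 to 0.75, adjusted p = 0.234). Without MV4-11R replicate 2, RBL1 (0.73, adjusted p = 0.0281) and E2F1 (0.97, adjusted p = 0.0126) passed. RBL2 turned to 0.03 without MV4-11 replicate 2 and to 0.05 without MV4-11R replicate 1, and passed in neither. Of the 6 RB pathway calls, CCND2, CDK6 and TFDP1 passed with any 1 array left out. With either MV4-11 array left out the count was 3. Leaving out either MV4-11 array, or replicate 2 of MV4-11R, ended the calls of CCND1 and E2F7. That of SKP2 ended whichever array was left out.

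Of 27 measured genes known to be driven by E2F, 5 rose, 1 fell and 21 did not pass (22.2% passing against 15.1% of all genes), with a median difference of 0.30. The phosphatase CDC25A, which activates cyclin-dependent kinases, read 7.74 and 7.39 in MV4-11 and 9.29 and 8.85 in MV4-11R, a rise of 2.84-fold (adjusted p = 0.00667). The ribonucleotide reductase subunit RRM2 read 8.75 and 8.78 against 9.71 and 9.83, a rise of 2.01-fold (adjusted p = 0.00425). The helicase subunit MCM6 (1.67-fold), the repair gene BRCA1 (1.64-fold) and the histone chaperone subunit CHAF1A (1.46-fold) rose too, with adjusted p from 0.0361 to 0.0460. Thymidylate synthase, TYMS, fell 1.59-fold (adjusted p = 0.0211). EZH2, labelled low in MV4-11R, read 9.75 and 9.74 in MV4-11 and 9.90 and 9.29 in MV4-11R, with overlap (difference -0.14, adjusted p = 0.734). These values are of RNA, and EZH2 protein was not measured on these arrays. Without MV4-11R replicate 2 the EZH2 difference turned to 0.16 (adjusted p = 0.565). CDC25A and RRM2 passed with any 1 array left out, whereas the count was 2 or 3 when replicate 1 or 2 of MV4-11 was left out, and 3 without replicate 1 of MV4-11R. It was 9 without replicate 2 of MV4-11R, where CDC6, CHAF1B, MYBL2 and POLA1 passed as well. The median of the list was not tested.

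Several members work in complexes whose other subunits are coded elsewhere in the genome. Of 41 such partners measured, 5 rose, 1 fell and 35 did not pass, 14.6% passing against 15.1% of all genes, with a median difference of 0.10. The shares were not tested against each other. RNASEH2A, the catalytic subunit beside RNASEH2B, rose 1.46-fold (adjusted p = 0.0321). SNF8, beside VPS36 in ESCRT-II, rose 1.52-fold (0.0170), COG5, beside COG3, 1.46-fold (0.0246), MED31, beside MED4, 1.93-fold (0.0191) and INTS7, beside INTS6, 1.44-fold (0.0443). INTS3, also of Integrator, fell 1.44-fold (0.0299), a call that was lost when probe sets of a gene were averaged (difference -0.27, adjusted p = 0.165).

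For other complexes no partner passed. SUCLG1 and SUCLG2, which pair with SUCLA2 or replace it, differed by -0.11 and -0.03, and GTF2F1, the large subunit of TFIIF, by 0.32. The 6 partners of ZC3H13 ran from -0.34 to 0.18, and the 4 of CAB39L from -0.20 to 0.13. The receptors of TNFSF11 were below the guide. None of the 6 partner calls held with every array left out in turn. Without replicate 1 of MV4-11R the call was of MED10 (difference -0.74), which is not among the 6.

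**Figure D4:**
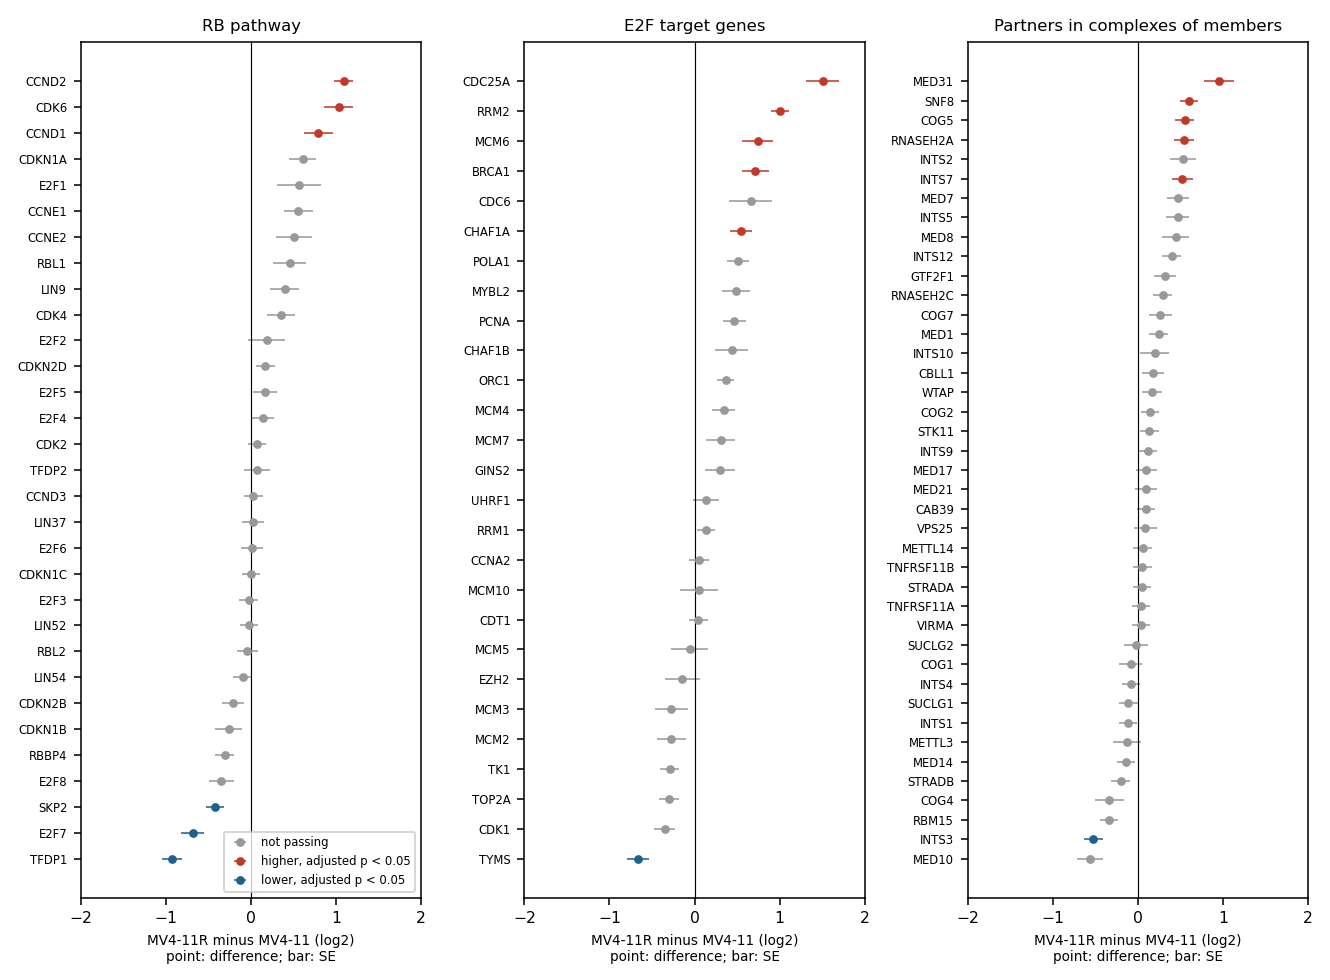
Log2 difference (MV4-11R minus MV4-11, point) with limma's standard error (bar) for measured genes of the RB pathway, E2F targets and partners of the members in complexes; red points rose and blue points fell at an adjusted p under 0.05. CCND2 and CDK6 lead the first panel and CDC25A the second, while TFDP1, of chromosome 13, has the lowest value of the first panel.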

How the data were processed

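Total RNA was labelled for Affymetrix arrays, per the labels' protocols. The authors deposited RMA values on the log2 scale. RMA and Affymetrix Expression Console are named, without versions, per the submitters' processing notes, and the scale was read from the values. A genome build for the probe sets is not given in the sources used here. Of 33297 probe sets, 19460 were paired with 1 gene, 1754 with several (left out) and 12083 were not listed. The brightest probe set was kept per gene, leaving 18417 genes with no filter. Arrays give no molecule counts, and their number limits the precision.

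Genes off the list were tested with limma 3.58.1 in R 4.3.3 (lmFit and eBayes, 2-sided, Benjamini-Hochberg over all genes, 2 arrays per line, no block), and the fit was tested on simulated data. "Rose" and "fell" mean an adjusted p under 0.05. The members, the RB pathway, E2F target and partner lists and the naming rule (all members, and up to 6 passing genes per direction and list, fixed RB pathway genes, and the nearest or enclosed neighbours) were chosen with earlier results of these data known. The p-values reflect only how far these arrays differ, which may be technical. Alternatives were leaving out arrays, median centring, quantile normalization, averaged probe sets, a filter on level, the replicate block, an intensity trend and leaving out chromosome 13.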

Additional observations from a re-analysis of the deposited data

How the results depend on the processing

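With 1 array left out in turn, the count of genes passing limma ran from 1588 to 2479 (2772 with all arrays), the RB pathway count from 3 to 7, the E2F target count from 2 to 9 and the partner count from 1 to 4. The members' median difference ran from -0.92 to -0.89, the number lower without overlap from 37 to 39 (36 with all arrays), and the RB1 difference from -1.70 to -1.55. Leaving out an array cannot make the number lower without overlap smaller, so its range is no check on stability. The median of genes before MTRF1 ran from -0.11 to -0.024 and that of the genes between the members from -0.27 to -0.086. With the filter that keeps genes over the 25th percentile of signal, that median turned to 0.0015, the median of the members went to -1.01 and that of the genes between them from -0.16 to -0.58. The members above the background guide in MV4-11 alone also had a median of -1.01. In these settings fewer genes near background enter. The choice by level in MV4-11, where most members read higher, favours a larger fall, so that median is no check. The replicate numbers are shared between the lines but not described as a batch, and the correlation of same-numbered deviations over genes was 0.26. With the replicate block the E2F target count was 10, the partner count 10, the RB pathway count 8 and that over all genes 3642. Under median centring, quantile normalization, averaged probe sets, the intensity trend and without chromosome 13, no count changed by more than 1.5 times. Signs of differences turned under some setting for 6 members, AKAP11 and 5 below the guide, and under none for the other 40. Signal over background limits 7 members below the guide in both lines.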
